A study of Homo sapiens with 12 samples.

Results

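The aminoacyl-tRNA synthetase genes encode the enzymes that join each amino acid to its tRNAs. Their members were listed by gene symbol, with no measured value in the rule, although earlier results of these data were known. All 36 listed symbols, spelled in the older form without a final 1 (AARS rather than AARS1), were found among the 25268 symbols of the deposited expression table, and all 36 passed the filter on low values that left 14676 genes to test. Of these, 20 encode cytosolic enzymes and 16 encode mitochondrial enzymes. GARS and KARS, which serve both compartments, were counted as cytosolic.

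Cytosolic synthetases supply the ribosomes that translate nuclear-encoded mRNAs. Mitochondrial synthetases are also encoded in the nucleus, are imported, and charge the tRNAs with which mitochondria make the respiratory chain subunits of their own genome. Several cytosolic enzymes (DARS, EPRS, IARS, KARS, LARS, MARS, QARS and RARS) are bound together in the multisynthetase complex. Many cytosolic synthetase genes are targets of ATF4, the transcription factor of the integrated stress response to amino acid shortage, and WARS, the tryptophanyl enzyme, is a classical interferon-inducible gene.

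RNA was sequenced from HEK293, an established human embryonic kidney cell line, 48 h after a transient transfection. The cells received either pCMV6-HIS-HA-RBMX (2 μg), in which the viral CMV promoter drives tagged RBMX, or the empty vector. RBMX is a nuclear RNA-binding protein of the hnRNP G family. Cells were treated with cycloheximide and lysed, and the lysates were spread on sucrose gradients. The heavy fractions gave polysomal RNA, and a share of every fraction was pooled as total RNA. Each of the 4 groups (control total, control polysomal, RBMX total, RBMX polysomal) held 3 biological replicates, called cultures 1 to 3 here, so that 12 libraries were compared. All groups shared the cell line, the transfection and the cycloheximide, and untransfected cells were not analysed here. The labels call the control cells wild type. Being transfected transiently, the cells of a culture need not carry the plasmid equally. In bulk RNA, fewer expressing cells and less RNA per cell cannot be told apart.

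Values are FPKM, fragment counts scaled by transcript length and by library, so levels of different genes are compared per length. How many fragments stand behind each library is unknown. RBMX itself lay at 108 to 147 FPKM in control total RNA and at 1460.3 to 2073 in RBMX total RNA. In polysomal RNA it lay at 87.4 to 148 in control cells and at 1072 to 1328 in RBMX cells, and both differences passed the test (limma adjusted p = 0.00269 and 0.0415). All 6 HEK293 markers examined (VIM, NEFL, NEFM, KRT8, KRT18, PAX2) were detected in every library, from 2.49 to 577 FPKM. PTPRC, CDH5, HBB and ALB, markers of blood, endothelium, red cells and liver, never exceeded 0.226 FPKM, while the fibroblast gene COL1A1 lay at 3.14 to 8.61. Control culture 3 stood apart from the other cultures: its 2 libraries had the lowest value of all 6 HEK293 markers in their fraction.

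The levels of the synthetases in control total RNA spanned a wide range. TARS, the threonyl enzyme, was highest at 117 ± 29.6 FPKM (SD, n = 3). FARSA, the alpha subunit of the phenylalanyl enzyme, followed at 100.0 ± 35.3, SARS, the seryl enzyme, at 99.5 ± 23.6 and NARS, the asparaginyl enzyme, at 99.2 ± 24.7. These neighbours differed by less than their SD. LARS2 at 4.34 ± 0.76, PARS2 at 4.40 ± 1.01 and MARS2 at 7.01 ± 0.33 were lowest, all of them mitochondrial, and LARS2 and PARS2 did not differ beyond their SD.

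For most amino acids the cytosolic gene was the higher of the pair. In 13 of 15 pairs of a cytosolic and a mitochondrial gene (FARSA and FARSB were each paired with FARS2) the cytosolic level was higher in 12 of 12 libraries, at ratios from 1.03 to 20.2. The arginyl pair was the exception in its mean: RARS2, the mitochondrial enzyme, lay at 56.6 ± 4.02 FPKM in control total RNA, rank 10 among the 36 genes, and RARS at 51.7 ± 14.4, a difference smaller than the SD of RARS. RARS was the higher in 10 of 12 libraries, and VARS was higher than VARS2 in 10 of 12 as well. For both pairs the exceptions were the total and the polysomal library of control culture 3. In total RNA of that culture RARS lay at 35.2 and RARS2 at 61.2 FPKM, so the order of their means rests on it.

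The first question of the design is whether transcript levels differ between RBMX-overexpressing and control cells in total RNA. No synthetase gene passed the test there (0 of 36, limma with Benjamini-Hochberg adjustment over all genes tested), beside 0.164% of all genes tested. At an unadjusted p under 0.05, 8 members were higher and 1 was lower in RBMX cells, beside 7.93% and 10.8% of all genes. Without overlap between groups, 8 members were higher (HARS and the mitochondrial TARS2, LARS2, AARS2, IARS2, SARS2, YARS2 and HARS2) and 2 were lower (WARS2 and RARS2), beside 11.9% and 15.4% of all genes tested. Of those higher, 7 were among the 16 mitochondrial enzymes and 1 was among the 20 cytosolic ones.

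The same comparison was made in polysomal RNA. Here again 0 of 36 members passed (limma, adjusted), beside 0.0477% of all genes tested, and 6 were higher and 1 lower at an unadjusted p under 0.05 (5.16% and 6.53% of all genes). Without overlap, 12 were higher, beside 10% of all genes, and RARS2 was lower, beside 12.5%. Of the 12, 9 were mitochondrial (TARS2, LARS2, AARS2, IARS2, SARS2, YARS2, HARS2, EARS2 and MARS2) and 3 were cytosolic (WARS, FARSA and HARS).

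**Figure D1:**
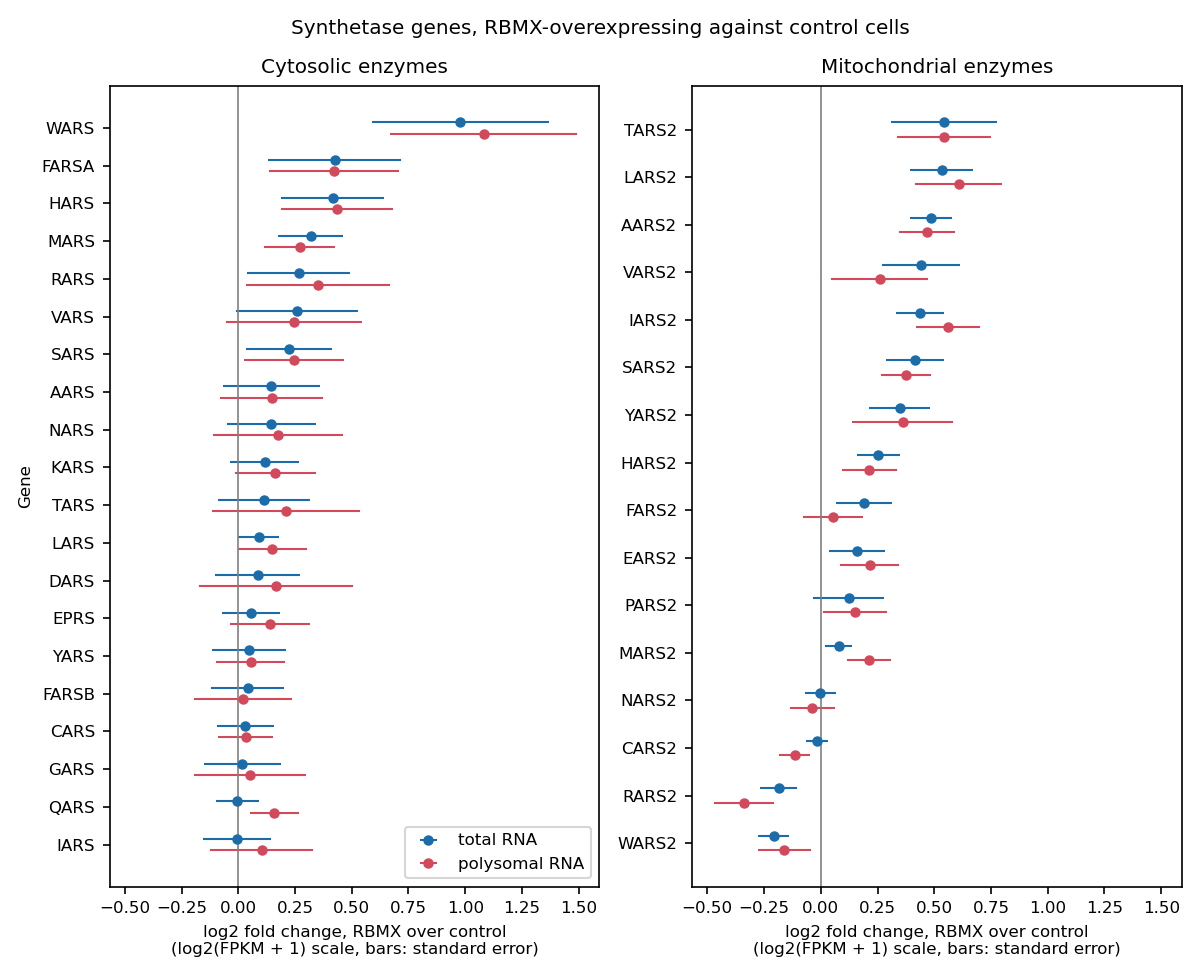
Log2 fold change of each synthetase gene, RBMX over control, on the log2(FPKM + 1) scale (x axis), for the 20 cytosolic (left) and 16 mitochondrial genes (right), in total (blue) and polysomal RNA (red); bars are standard errors from 3 against 3 libraries. WARS lies farthest to the right at 0.98 and 1.08, 6 mitochondrial genes lie between 0.41 and 0.54 in total RNA, and RARS2 and WARS2 lie to the left of 0.

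As a group, the mitochondrial enzymes had medians of 0.22 in total RNA (12 above 0 and 4 below) and 0.21 in polysomal RNA (also 12 and 4) on the log2 scale. The cytosolic enzymes had medians of 0.11 (18 above and 2 below) and 0.16 (20 and 0). Of all genes tested, 49.7% lay above 0 in total and 49.5% in polysomal RNA. The mitochondrial medians stayed above 0 under all 17 alternative settings in each fraction, from 0.12 to 0.30 in total and 0.10 to 0.27 in polysomal RNA. Another filter, variance model or block, or a fit of all 12 libraries together, cannot move these medians. Those settings returned the main values, so only the remaining ones could have changed the sign. The order of the compartments was less stable in polysomal RNA. The cytosolic median was the higher there without control culture 1 (0.29 against 0.27), without control culture 2 (0.31 against 0.27), without RBMX culture 3 (0.225 against 0.220) and after a correction for GC content and length (0.218 against 0.206). The cytosolic medians turned negative when control culture 3 was left out, to -0.074 in total and -0.072 in polysomal RNA. Both comparisons of RBMX with control draw on the same 6 cultures, and no test was made between the compartments, because members are not replicates of a condition.

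WARS had the largest difference of the family. The gene lies on chromosome 14 from 100333788 to 100376805 on the minus strand (GENCODE, GRCh38). In total RNA its FPKM was 56.7, 57.4 and 35.9 in control cultures 1 to 3, and 125, 133 and 55.3 in RBMX cultures 1 to 3. RBMX culture 3 lay within the control range, close to its top, while the other RBMX cultures lay far above it. The log2 fold change was 0.98 (SE 0.39, limma adjusted p = 0.265). In the polysomal libraries it read 58.9, 59.5 and 34.9 in control and 136, 147 and 59.7 in RBMX cultures. The groups did not overlap there, although RBMX culture 3 exceeded the highest control library only slightly. The log2 fold change was 1.08 (SE 0.41, limma adjusted p = 0.417). Without control and RBMX cultures 3, an alternative added after seeing the data that drops the lowest WARS library of each group, the difference was 1.16 in total (limma adjusted p = 0.00721) and 1.24 in the polysomal fraction (limma adjusted p = 0.0139). With these cultures left out, 306 of all genes tested passed in total (2.09%) and 348 in polysomal RNA (2.37%), so the lower p is not independent support for WARS. Without control culture 3 alone WARS did not pass, at 0.76 (limma adjusted p = 0.315) and 0.83 (limma adjusted p = 0.359). WARS shares 287 exonic bases with WDR25 on the opposite strand, and strand-specific counting is not stated.

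The interferon-response genes and WARS had their lowest control value and their lowest RBMX value in the same cultures. The summed FPKM of 9 such genes (IFIT1, IFIT2, IFIT3, ISG15, MX1, OAS1, IRF1, GBP1 and TAP1) was 535, 592 and 311 in control total and 3395, 3624 and 1015 in RBMX total libraries. In polysomal RNA it was 562, 555 and 360.1 in control and 3592, 3191 and 1102 in RBMX libraries. Each of the 9 was higher in every RBMX library than in any control library of its fraction, and 0 of 9 passed the adjusted test (lowest limma adjusted p = 0.176 in total and 0.400 in polysomal RNA). IFIT1, an RNA-binding antiviral protein, lay at 67.0, 78.3 and 24.9 FPKM in control total RNA and at 475, 559 and 132 in RBMX total RNA. Culture 3 of each vector was the lowest for IFIT1, as it was for the sum and for WARS. This order was not particular to them. It also held in both fractions for TARS2, LARS2, SARS2, MARS and RBMX itself. Control culture 3 was lowest for all 20 cytosolic synthetases. Its ratio to the other control cultures was 0.63 in total and 0.59 in polysomal RNA for WARS, beside cytosolic medians of 0.66 and 0.59. The part of an interferon response in the WARS values was not tested.

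Short stretches of promoter are shown for the genes with a motif of these responses. The letters searched on both strands were GAAANNGAAA for the interferon-stimulated response element (ISRE), TTCNNNGAA for the gamma-activated site (GAS) and TGATGNAA for the C/EBP-ATF response element (CARE) that ATF4 binds, where N is any base. Windows ran from 250 bases before to 50 after each RefSeq start (GRCh38.p14) and were found for 30 of the 36 members. AARS2, DARS, LARS, VARS, VARS2 and YARS had no entry. The ISRE letters stood in WARS among 16 cytosolic genes and in EARS2 among 14 mitochondrial genes, beside 4.38% of the 27305 genes with a window. The GAS letters stood in 3 of 16 (WARS, CARS and TARS) and 2 of 14 (WARS2 and PARS2), beside 9.38%. These stretches carry the motif in capitals, each read 5′ to 3′ on the strand on which the motif reads forward. The WARS ISRE (chr14:100375384-100375411, minus strand), the WARS GAS (chr14:100375471-100375498, minus strand) and the EARS2 ISRE (chr16:23557555-23557582, plus strand) follow.
WARS ISRE: ttcagaaggGAAACTGAAAgaaagaggg
WARS GAS: ctcaagtgtTTCTGAGAAtctgggtgat
EARS2 ISRE: tcagcttggGAAAGCGAAAgcgtggcag

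A match of letters is a description and not a binding site. EARS2, the mitochondrial glutamyl enzyme, carries the same ISRE letters but differed less, by 0.16 on the log2 scale in total RNA (SE 0.12, limma adjusted p = 0.518) and by 0.22 in the polysomal fraction (SE 0.13, limma adjusted p = 0.516). The difference between EARS2 and WARS was not tested. WARS2, the mitochondrial partner of WARS, lay on the other side of 0. Its FPKM in total RNA was 9.26, 9.98 and 9.63 in control and 7.73, 8.05 and 8.83 in RBMX cultures. Every RBMX library lay below every control library (log2 fold change -0.21, SE 0.069, limma adjusted p = 0.216). In polysomal RNA, with 9.87, 9.56 and 8.10 in control and 7.84, 7.27 and 9.21 in RBMX cultures, the groups overlapped (-0.16, SE 0.12, limma adjusted p = 0.585).

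**Figure D2:**
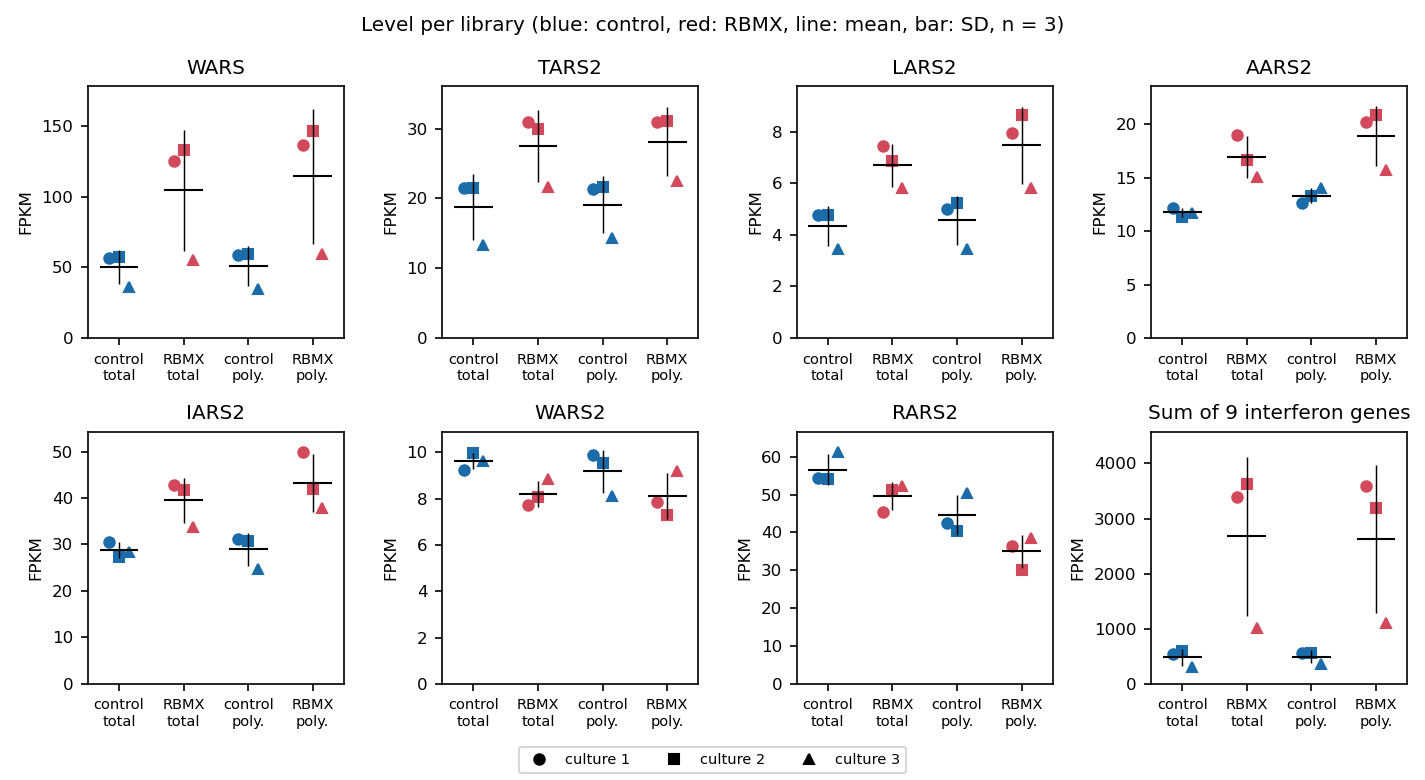
FPKM per library (y axis) of 7 synthetase genes and the sum of 9 interferon-response genes in the 4 groups (x axis); symbols mark cultures 1 to 3, lines the mean and bars the SD (n = 3). WARS reaches 125 to 147 FPKM in RBMX cultures 1 and 2 and 55.3 to 59.7 in RBMX culture 3, which is also the lowest RBMX culture in the interferon sum.

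Among the mitochondrial enzymes, TARS2, LARS2 and AARS2 had the largest differences in total RNA, and LARS2 and IARS2 those in polysomal RNA. TARS2, the threonyl enzyme (chromosome 1, 150487364 to 150507609, plus strand), lay at 21.5, 21.5 and 13.3 FPKM in control and at 30.9, 30.0 and 21.6 in RBMX total libraries. Its groups touched without overlapping, since RBMX culture 3 exceeded the highest control library by under 0.1 FPKM (log2 fold change 0.54, SE 0.23, limma adjusted p = 0.287). In polysomal RNA it lay at 21.3, 21.6 and 14.4 in control and at 30.9, 31.0 and 22.4 in RBMX libraries (0.54, SE 0.21, limma adjusted p = 0.417). Culture 3 was the lowest of each group. Without control culture 3 alone the difference in total RNA was smaller, 0.32 on the log2 scale. Without control and RBMX cultures 3 it was 0.48 (limma adjusted p = 0.0374), and 0.51 in the polysomal fraction (limma adjusted p = 0.0322), in the same added fits in which 2.09% and 2.37% of all genes passed. Its cytosolic partner TARS lay at 129, 138 and 82.9 FPKM in control and at 124, 129 and 117 in RBMX total libraries, with overlapping groups.

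LARS2, the leucyl enzyme (chromosome 3, 45388506 to 45549421, plus strand), was the lowest member by level in control total RNA, and PARS2 was the lowest in the other groups. Its FPKM in total RNA was 4.78, 4.79 and 3.46 in control and 7.44, 6.86 and 5.81 in RBMX cultures. In polysomal RNA it was 4.99, 5.23 and 3.46 in control and 7.94, 8.65 and 5.81 in RBMX cultures. All RBMX libraries exceeded all control libraries of their fraction, with log2 fold changes of 0.53 (SE 0.14, limma adjusted p = 0.181) and 0.61 (SE 0.19, limma adjusted p = 0.403). The log2(FPKM + 1) scale understates the change of so low a gene. Its partner LARS, in the multisynthetase complex, lay at 36.5, 36.8 and 31.8 in control and at 38.6, 39.6 and 33.8 in RBMX total libraries, which overlapped.

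AARS2, the alanyl enzyme (chromosome 6, 44299654 to 44313326, minus strand), had the smallest standard error of these genes in total RNA. In total RNA its FPKM was 12.2, 11.4 and 11.7 in control and 19.1, 16.6 and 15.1 in RBMX cultures. Control culture 3 lay between the other control cultures. The log2 fold change of 0.49 (SE 0.093) had the lowest adjusted p of all members in total RNA (limma adjusted p = 0.170). Its polysomal values were 12.6, 13.3 and 14.0 in control and 20.2, 20.9 and 15.7 in RBMX cultures (0.47, SE 0.12, limma adjusted p = 0.400). AARS2 shares 235 exonic bases with TMEM151B on the opposite strand. Exonic overlaps with another gene that has FPKM values here, on either strand and microRNAs included, were found for 13 of the 36 members. The cytosolic AARS lay at 44.6, 44.8 and 27.7 in control and at 47.7, 42.6 and 37.2 in RBMX total libraries, with overlap.

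IARS2, the isoleucyl enzyme (chromosome 1, 220094102 to 220148041, plus strand), lay at 30.6, 27.3 and 28.5 FPKM in control and at 42.8, 41.8 and 33.8 in RBMX total libraries. In polysomal RNA it lay at 31.3, 30.7 and 24.8 in control and at 49.9, 41.9 and 37.8 in RBMX libraries. The groups were apart in both fractions, with log2 fold changes of 0.44 (SE 0.11, limma adjusted p = 0.176) and 0.56 (SE 0.14, limma adjusted p = 0.400). Its partner IARS had overlapping groups, with 73.2, 77.2 and 52.8 in control and 65.3, 65.9 and 68.7 in RBMX total libraries.

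Further mitochondrial enzymes had a higher mean in RBMX total RNA. In total RNA, SARS2 (seryl) had a log2 fold change of 0.41 (SE 0.13, limma adjusted p = 0.200) and YARS2 (tyrosyl) of 0.35 (SE 0.14, limma adjusted p = 0.257), both without overlap of groups. SARS2 lay at 35.0, 31.5 and 26.7 FPKM in control and at 46.3, 41.5 and 37.1 in RBMX total libraries, while its partner SARS lay at 110.2, 116 and 72.4 and at 117, 116 and 108. SARS2 shares 349 exonic bases with MRPS12 on the opposite strand. HARS2, the histidyl enzyme, lay at 19.1, 18.6 and 15.8 in control and at 23.3, 20.6 and 20.4 in RBMX total libraries. HARS lay at 58.7, 60.7 and 34.3 in control and at 69.6, 66.2 and 64.3 in RBMX total libraries. HARS and HARS2 are divergent neighbours that share 437 exonic bases on opposite strands, so their values are not fully separate measurements. VARS2, the valyl enzyme, had a log2 fold change of 0.44 (SE 0.17, limma adjusted p = 0.260) with overlapping groups, as control culture 3 at 30.8 exceeded RBMX culture 3 at 30.2. VARS2 shares 1858 exonic bases with GTF2H4 on the same strand, so its level is uncertain. The remaining mitochondrial genes with overlapping groups in total RNA lay between -0.018 and 0.19.

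RARS2 was the only member lower without overlap in RBMX cells in total and in polysomal RNA alike. The arginyl enzyme gene lies on chromosome 6 from 87514378 to 87590003 on the minus strand. Its FPKM in total RNA was 54.3, 54.2 and 61.2 in control and 45.5, 51.3 and 52.2 in RBMX cultures. In polysomal RNA it was 42.5, 40.4 and 50.4 in control and 36.4, 30.1 and 38.5 in RBMX cultures. The log2 fold changes were -0.19 (SE 0.082, limma adjusted p = 0.296) in total and -0.34 (SE 0.13, limma adjusted p = 0.420) in polysomal RNA. Control culture 3 was the highest control library for RARS2, in contrast to most members. The cytosolic RARS lay at 58.4, 61.5 and 35.2 in control and at 62.3, 65.1 and 54.8 in RBMX total libraries, which overlapped.

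**Figure D3:**
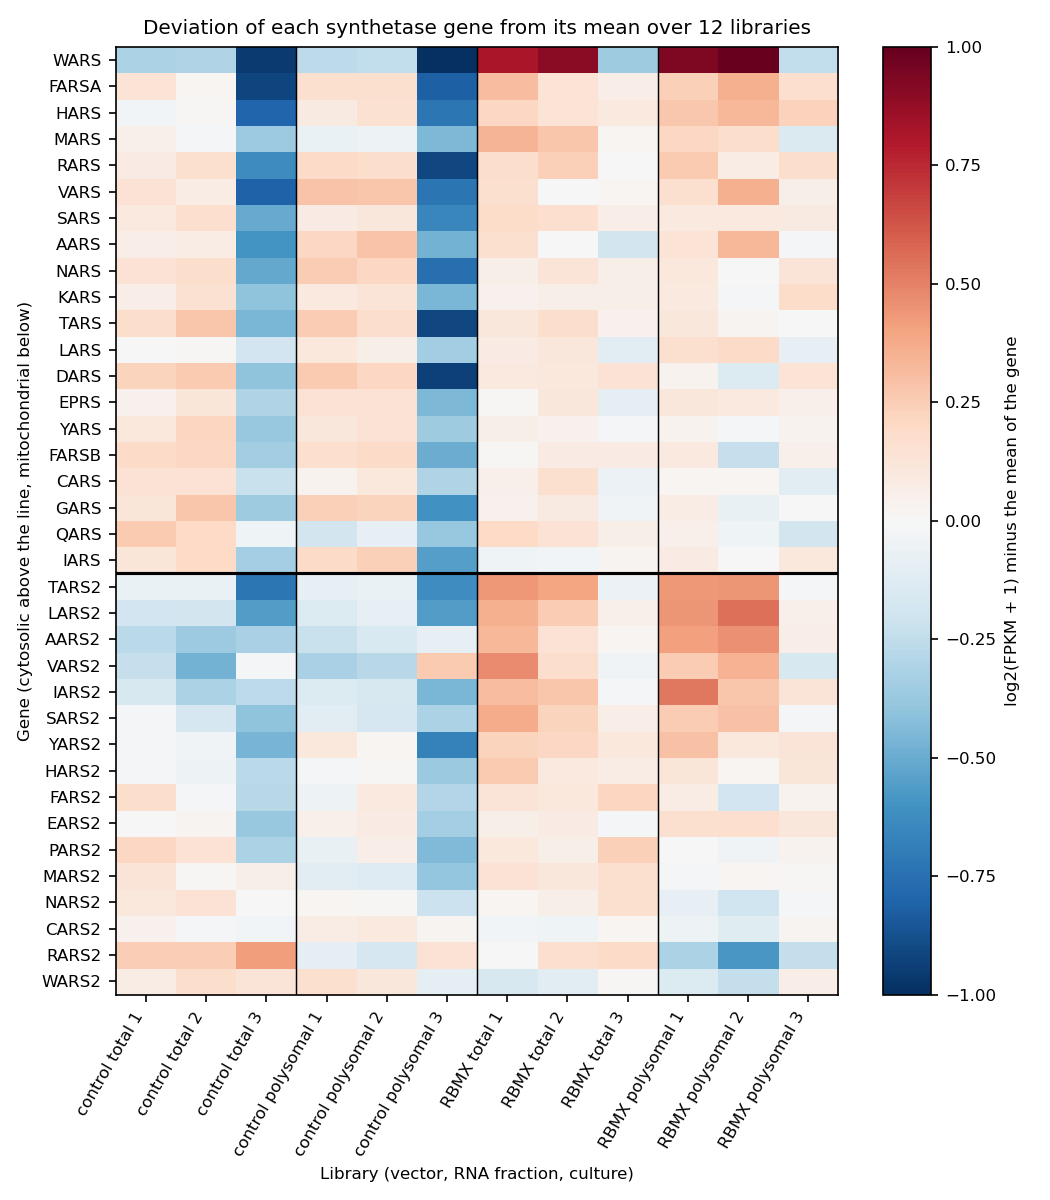
Deviation of each synthetase gene (rows, cytosolic above the line, mitochondrial below) from its mean over the 12 libraries (columns) on the log2(FPKM + 1) scale; red is above and blue below the mean, and the color scale ends at 1 in each direction. The columns of control culture 3 are below the mean in all 20 cytosolic rows, QARS in total RNA by little, and the row of RARS2 is red in control total libraries and blue in RBMX polysomal libraries.

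The cytosolic enzymes apart from WARS had log2 fold changes between -0.0053 and 0.43 in total and between 0.021 and 0.44 in polysomal RNA. All 20 cytosolic genes had their lowest value among the 6 libraries of a fraction in control culture 3, in total and in polysomal RNA alike. This held for 9 of 16 mitochondrial genes in total and 11 of 16 in polysomal RNA, and for 32.0% and 34.6% of all genes tested. The ratio of control culture 3 to the mean of control cultures 1 and 2 had a median of 0.66 over the cytosolic and 0.88 over the mitochondrial genes in total RNA, beside 1.01 over all genes tested. In polysomal RNA the medians were 0.59, 0.80 and 1.00. HARS in both fractions and FARSA in polysomal RNA lay higher in each RBMX library than in control cultures 1 and 2 as well, by 0.16, 0.15 and 0.097 on the log2 scale without control culture 3.

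Summed over the 20 cytosolic genes, FPKM was 1379.7, 1414 and 909.9 in control total libraries and 1466, 1461 and 1299 in RBMX total libraries. Control cultures 1 and 2 lay close to the RBMX cultures. The corresponding sums of the 16 mitochondrial genes were 312, 298 and 283 in control and 366, 352 and 327 in RBMX total libraries, without overlap. FARSA, with 125, 115 and 59.7 FPKM in control and 141, 126 and 119 in RBMX total libraries, had the lowest ratio of control culture 3 to the other control cultures in total RNA, 0.50.

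Library composition was also examined beside these values. Summed over all genes, FPKM was 1384610, 1174970 and 1903320 in control total and 817528, 880072 and 1379040 in control polysomal libraries. Control culture 3 was thus the highest of its fraction, as RBMX libraries lay between 1320620 and 1543840 in total and between 999347 and 1328140 in polysomal RNA. Its part in the lower synthetase values of that culture was not tested. The median GC content of the transcripts was 47.7% for cytosolic and 51.2% for mitochondrial members. Across genes, the deviation of a library from the gene means had Spearman correlations with GC content of -0.27, -0.40 and -0.31 in control total and 0.34, -0.088 and 0.092 in RBMX total libraries. After a correction for GC content and transcript length, AARS2 in total RNA had a log2 fold change of 0.40 and RARS2 of -0.12, and the directions were kept. The cytosolic and mitochondrial medians were then 0.16 and 0.20 in total RNA, closer together than before the correction, and 0.22 and 0.21 in polysomal RNA, where the cytosolic one was the higher.

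Within the cytosolic set, the 8 enzymes of the multisynthetase complex had a median difference of 0.088 on the log2 scale in total and 0.16 in polysomal RNA. The 12 others had medians of 0.15 and 0.19, with WARS, HARS and FARSA among them. Across both compartments, the 19 class I and 17 class II enzymes, which differ in the fold of their catalytic domain, had medians of 0.090 and 0.15 in total RNA. In polysomal RNA the order was the other way round, with 0.21 for class I and 0.18 for class II. These medians include control culture 3. Without it they were -0.062 for the complex and -0.078 for the 12 others in total RNA, and -0.020 and -0.092 in polysomal RNA. Class I then had 0.016 and class II -0.041 in total RNA, and 0.0068 and -0.028 in polysomal RNA.

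Polysome loading was the next comparison, polysomal against total RNA within each vector. In control cells 0 of 36 members passed (limma, adjusted), beside 0.0818% of all genes tested, with 1 higher and 3 lower at an unadjusted p under 0.05 (3.2% and 4.84% of all genes). AARS2 was higher without overlap, beside 7.63% of all genes, and QARS, RARS2 and MARS2 were lower, beside 7.31%. In RBMX cells 0 of 36 passed (limma, adjusted), beside 1.34% of all genes tested, with 0 higher and 4 lower at an unadjusted p under 0.05 (10% and 13%). HARS and EARS2 were higher without overlap, beside 14.6%, and RARS2, QARS, FARS2, NARS2, MARS2 and PARS2 were lower, beside 16.2%. The medians lay near 0, at -0.034 for cytosolic and -0.0097 for mitochondrial enzymes in control cells and at 0.014 and -0.038 in RBMX cells.

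RARS2 had the largest difference between fractions in RBMX cells. Its log2 difference was -0.34 in control cells (SE 0.11, limma adjusted p = 0.597) and -0.50 in RBMX cells (SE 0.11, limma adjusted p = 0.106). Culture by culture, polysomal minus total RNA was -0.35, -0.41 and -0.27 in control and -0.31, -0.75 and -0.43 in RBMX cultures. All 6 cultures thus lay below 0, with RBMX culture 2 the lowest. After the correction for GC content and length, the difference in RBMX cells was -0.32 and passed the test (limma adjusted p = 0.043), beside 2.3% of all genes with that correction, which was added after seeing the data.

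QARS, the glutaminyl enzyme of the multisynthetase complex, came next. Its FPKM in control cells was 59.0, 56.3 and 47.6 in total and 43.1, 46.2 and 37.4 in polysomal RNA (log2 difference -0.36, SE 0.12, limma adjusted p = 0.597). In RBMX cells it was 56.3, 54.4 and 51.2 in total and 50.8, 47.7 and 43.2 in polysomal RNA (-0.19, SE 0.075, limma adjusted p = 0.211). Each polysomal library lay below the total libraries of the same vector.

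MARS2, the mitochondrial methionyl enzyme, lay at 7.36, 6.71 and 6.96 FPKM in total and at 6.12, 6.004 and 4.85 in polysomal RNA of control cells (-0.27, SE 0.099, limma adjusted p = 0.597). In RBMX cells it lay at 7.48, 7.31 and 7.57 in total and at 6.57, 6.76 and 6.73 in polysomal RNA (-0.14, SE 0.044, limma adjusted p = 0.166). FARS2, the phenylalanyl enzyme, lay at 11.1, 10.9 and 11.9 in total and at 10.6, 8.68 and 10.4 in polysomal RNA of RBMX cells (-0.18, SE 0.086, limma adjusted p = 0.279), and its groups overlapped in control cells. In RBMX cells the polysomal libraries of both genes lay below every total library.

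Above 0 were HARS and EARS2. HARS lay at 69.6, 66.2 and 64.3 FPKM in total and at 72.4, 75.8 and 70.7 in polysomal RNA of RBMX cells (0.13, SE 0.053, limma adjusted p = 0.227). EARS2 lay at 17.2, 17.6 and 16.3 in total and at 18.6, 18.6 and 18.0 in polysomal RNA of RBMX cells (0.10, SE 0.047, limma adjusted p = 0.253). In control cells both genes had overlapping groups.

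Since the fractions of a culture share a gradient, the differences can also be read within cultures. Members below 0 in 6 of 6 cultures numbered 7 (RARS2, QARS, MARS2, NARS2, PARS2, MARS and CARS), beside 16.5% of all genes tested. Those above 0 in 6 of 6 numbered 4 (AARS2, HARS, LARS2 and EARS2), beside 16%, with LARS2 within 0.002 of 0 in culture 3 of each vector. With the culture as a block, 0 members passed in control or in RBMX cells (limma, adjusted).

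**Figure D4:**
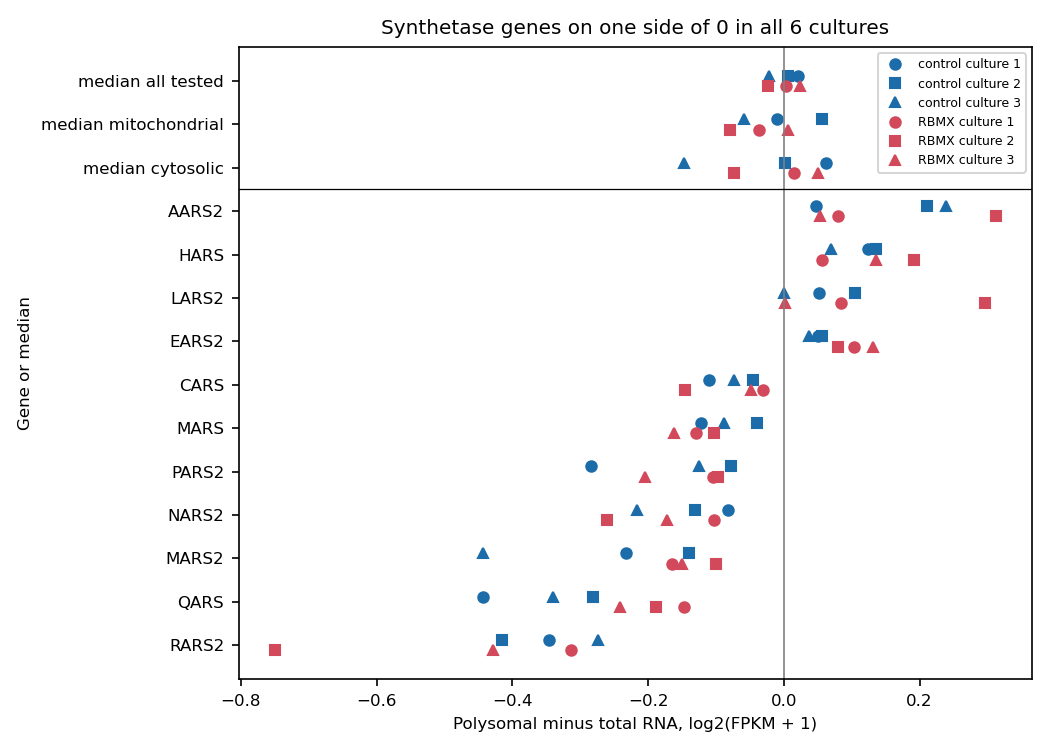
Polysomal minus total RNA in each of the 6 cultures on the log2(FPKM + 1) scale (x axis) for the 11 synthetase genes on the same side of 0 in every culture, with the medians of the cytosolic, mitochondrial and all tested genes above the line. RARS2 lies between -0.75 and -0.27, farther from 0 than the medians, which lie between -0.15 and 0.063.

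The difference between fractions of the RBMX effect, the quantity that separates a change in polysome loading from a change in level, was tested over all 12 libraries. It passed for 0 of 36 members (limma, adjusted), beside 0.0204% of all genes tested, and 0 had an unadjusted p under 0.05, beside 0.211% of all genes above and 0.388% below 0. Fitted differences ran from -0.18 for VARS2 to 0.16 for QARS. For RARS2 the difference was -0.15 (95% interval -0.51 to 0.20) and for AARS2 -0.018 (-0.37 to 0.33). For WARS it was 0.10 (-1.25 to 1.46), an interval wide enough to hold more than a doubling in either direction. This fit did not pair the fractions of a culture, so its intervals include the spread between cultures. Within cultures, WARS polysomal minus total RNA was 0.055, 0.052 and -0.042 in control and 0.12, 0.14 and 0.11 in RBMX cultures.

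Partners of tRNA charging gave no call either. Of 10 tested genes (the complex scaffolds AIMP1, AIMP2 and EEF1E1, the mitochondrial amidotransferase subunits QRSL1, GATB under its older name PET112 and GATC, and MTFMT, PTRH2, DTD1 and XPOT), 0 passed in either fraction (limma, adjusted). Their median log2 fold change was 0.051 in total and -0.035 in polysomal RNA. Without overlap 0 were higher and 3 lower (GATC, MTFMT and XPOT) in each fraction. Of all genes tested, 11.9% were higher and 15.4% lower in this way in total RNA, and 10% and 12.5% in polysomal RNA. XPOT, the nuclear export factor of tRNA, lay at 41.4, 44.6 and 43.9 FPKM in control and at 35.9, 38.5 and 38.2 in RBMX total libraries (limma adjusted p = 0.187).

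The ATF4 program of amino acid stress, to which many cytosolic synthetases belong, had a median near 0, with members on both sides of it. Of 26 listed genes 25 were tested and 0 passed in either fraction (limma, adjusted), with medians of 0.019 in total and 0.021 in polysomal RNA. In total RNA the list ran from -0.44 to 0.56 on the log2 scale, with 4 genes higher and 2 lower without overlap (11.9% and 15.4% of all genes). At an unadjusted p under 0.05 in limma, 4 were higher and 1 was lower, beside 7.93% and 10.8% of all genes. ATF4 itself lay at 571, 547 and 584 FPKM in control and at 559, 602 and 585 in RBMX total libraries, which overlapped. ASNS, asparagine synthetase, lay at 57.0, 57.0 and 38.9 in control and at 51.6, 55.6 and 48.2 in RBMX total libraries. PPP1R15A, the stress-induced phosphatase subunit, lay at 78.0, 79.1 and 87.1 in control and 129.7, 133 and 102 in RBMX total libraries (log2 fold change 0.56, limma adjusted p = 0.170). SLC3A2, the heavy chain of amino acid exchangers, differed by 0.34 (limma adjusted p = 0.176) and the stress gene NUPR1 by 0.36 (limma adjusted p = 0.196). SLC7A11, the cystine transporter, lay on the other side at -0.44 (limma adjusted p = 0.176). These were chosen after their values were seen.

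The CARE letters stood in the promoter windows of 7 of 16 cytosolic genes (AARS, CARS, GARS, IARS, MARS, NARS and TARS) and of 1 of 14 mitochondrial genes (YARS2), beside 4.46% of all genes with a window. Examples are shown because they mark the group whose regulator was followed above. They are AARS (chr16:70289676-70289703, plus strand), MARS (chr12:57488054-57488081, minus strand), TARS (chr5:33440957-33440984, minus strand) and YARS2 (chr12:32756077-32756104, minus strand), with the motif in capitals.
AARS CARE: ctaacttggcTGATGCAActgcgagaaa
MARS CARE: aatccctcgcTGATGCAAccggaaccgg
TARS CARE: ctggaccagcTGATGCAAtcgaaaggcg
YARS2 CARE: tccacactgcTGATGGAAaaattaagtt

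The 7 cytosolic genes with these letters had a median difference of 0.11 (log2) in total RNA, from -0.0053 to 0.32, and the 9 cytosolic genes with a window but without the letters had 0.22. In polysomal RNA the medians were 0.15 and 0.25. Without control culture 3 they were -0.093 and 0.011 in total and -0.15 and -0.0054 in polysomal RNA. The highest of the 7 was MARS, the methionyl enzyme of the complex, at 72.4, 69.3 and 54.2 FPKM in control and 88.5, 85.0 and 70.8 in RBMX total libraries (log2 fold change 0.32, SE 0.14, limma adjusted p = 0.300). MARS shares 519 exonic bases with ARHGAP9 and 355 with DDIT3, a stress-induced gene, both on the opposite strand.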

How the data were processed

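FPKM values for 25268 gene symbols in 12 libraries were deposited by the authors. The submitters' processing notes list CASAVA 1.8, TopHat2 2.0.13, Cufflinks 2.2.1, Cuffnorm and the hg19 build, whereas the study's methods describe trimming and hg38 alignment for counts tested with DESeq2. Further scaling between libraries is not stated. The median ratio of a library to the geometric means of the genes ran only from 0.983 to 1.02, while summed FPKM ran from 817528 to 1903320. FPKM values are not counts, so limma 3.58.1 in R 4.3.3 (lmFit, eBayes with trend) was applied to log2(FPKM + 1) of the 14676 genes with a mean of at least 0.5 FPKM. Benjamini-Hochberg adjustment ran over all of them, with a threshold of 0.05. The fit was also run on simulated data with independent noise for each gene and library. Those data held no effect shared within a culture, so they cannot vouch for calls where a culture stands apart. Figures were drawn with Python 3.11.15 and matplotlib 3.10.9. Exact permutation of 3 against 3 libraries cannot give a two-sided p below 0.1. The members and lists were chosen with earlier results of these data known, and 2 listed genes are not reported here.

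Members were found by symbol, and 0 columns were left unmatched. Named with values in every library were up to 3 members per direction and comparison with the largest difference among those whose groups did not overlap, WARS, the 3 highest and 3 lowest by level, and partners of the same amino acid. SARS2, HARS2, VARS2, YARS2, NARS, the listed stress, interferon and partner genes and the spread of control culture 3 were described after their values were seen. Total and polysomal libraries of a culture are paired by their shared gradient. Their deviations correlated at 0.638, 0.742 and 0.867 in control and 0.240, 0.032 and 0.707 in RBMX cultures 1 to 3 across genes, which are not independent. Replicates of a group correlated at 0.975 to 0.999 (Spearman). GENCODE on GRCh38 gave positions, transcript lengths and GC content, a build other than that of the FPKM values, and promoter windows from RefSeq. Alternatives were another pseudocount (0.1), minimum (0.1, 1 or none), scaling, variance model, block or set of libraries, each replicate left out, and 2 added after seeing the data, without cultures 3 and with GC and length correction.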

Additional observations from a re-analysis of the deposited data

How the results depend on the processing

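The count of members past the threshold was 0 in each of the 5 comparisons and stayed 0 under every other setting chosen at the outset, each replicate left out in turn included (0 to 0). It moved under the alternatives added after seeing the data. Without control and RBMX cultures 3 it was 2 in total RNA (WARS and TARS2) and 4 in polysomal RNA (WARS, AARS2, TARS2 and VARS2), where 306 and 348 of all 14676 genes passed (2.09% and 2.37%). With GC and length correction it was 1 for polysomal against total RNA in RBMX cells (RARS2). With a replicate block it was 0 everywhere. The block pairs the fractions of a culture, while control and RBMX cultures of the same number share only that number.

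The cytosolic median of polysomal minus total RNA in RBMX cells was 0.014. It was 0.097 after quantile normalization and -0.040 without culture 3. It ranged from -0.034 to 0.025 with each replicate left out. Leaving out a replicate gave cytosolic medians from -0.074 to 0.24 in total and -0.072 to 0.31 in polysomal RNA for RBMX against control, and mitochondrial ones from 0.12 to 0.30 and 0.10 to 0.27. Of 357 values for 21 single-gene results, 351 kept their direction and 4 crossed the threshold. These include settings that cannot change a fold change: the filter, the variance model, the block and the fit of all 12 libraries. Their direction was thus fixed in advance. The 6 values that turned were WARS in polysomal against total RNA. In control cells it was -0.20 without total replicate 3, -0.099 without polysomal replicate 1 and -0.11 without polysomal replicate 2. In RBMX cells it was -0.28, -0.056 and -0.11, within a range of -0.28 to 0.53 over the replicates left out (-0.20 to 0.27 in control cells). Each of these settings left out a library but kept the other fraction of the same culture, in a fit without pairing. Within cultures the WARS difference ran from -0.042 to 0.14. The cause of the turns was not tested, and the main values were 0.022 and 0.12 with adjusted p of 1 and 0.911 in limma.

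Over all genes, calls ranged from 13 to 306 in total RNA (main 24), 3 to 348 in polysomal RNA (7), 6 to 199 (12) and 4 to 338 (196) for polysomal against total RNA in control and RBMX cells, and 3 to 14 for the difference between fractions (3). With the replicate block they were 13, 3, 6, 4 and 5. Depth per library is unknown, which limits the lowest members, LARS2, PARS2 and MARS2, most.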
